A study of Mus musculus with 24 samples.

Results

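The 10 genes described here, Fos, Fosb, Jun, Junb, Jund, Egr1, Ier2, Atf3, Nr4a1 and Btg2, are immediate-early response genes. They were taken by symbol from a table of read counts over 47643 Ensembl gene IDs, and all 10 were found, 1 row each. The table covers plantaris, a fast hindlimb muscle, of wild-type C57BL/6 mice. One group breathed normal air (11 libraries) and the other was exposed to tobacco smoke for 16 weeks (13 libraries). No other genotype, allele or agent was given, and age and time of day of collection were not given in the sources used here. The series title names the aryl hydrocarbon receptor, a ligand-activated transcription factor, and muscle impairment after smoking, so the comparison asks how the muscle transcriptome differs after smoke. Libraries were made by 3′-end sequencing, in which a transcript is read near its poly(A) tail. Nothing in the labels says that each library is 1 mouse, so that p-values measure the spread between libraries.

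Immediate-early genes are switched on within minutes of a stimulus, without new protein synthesis, by transcription factors that are already present and become phosphorylated, such as SRF with its ternary complex partners and CREB. Many encode transcription factors themselves, and their transcripts are short-lived. In skeletal muscle they respond to contraction, stretch, injury and handling of the tissue, so that their level in a muscle reflects the time just before it was frozen. The Fos and Jun proteins pair through leucine zippers to form AP-1, a dimer that binds DNA. Atf3 belongs to the same leucine zipper superfamily and is induced by stress. Egr1 is a zinc finger factor and Nr4a1 an orphan nuclear receptor. Ier2 is a small nuclear protein, and Btg2 an antiproliferative protein that recruits the deadenylase complex to messenger RNAs.

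Total counts per library ranged from 2868808 to 4060568 in air and from 2515697 to 4528845 in smoke. Values are CPM, the read count of a gene relative to its library's total, with totals scaled by the trimmed mean of M values (TMM). A floor of 3 counts is worth 0.662 to 1.19 CPM of the library total, and covers counting error only. Fast fibre markers were abundant in every library, with a summed level of 157824 to 246306 CPM in air and 167031 to 213043 CPM in smoke over the 8 listed genes. Air library 11 stood apart in having the smallest share of mitochondrial transcripts, 1.82% of its counts against 2.35% to 3.39% in the 13 smoke libraries and 2.56% to 3.37% in the other air libraries.

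Of the 10 genes, 8 passed the expression filter and entered the test of smoke against air, and Fos and Fosb did not. By edgeR's quasi-likelihood test 0 of the 8 were called at a Benjamini-Hochberg adjusted p under 0.05. DESeq2 called 1, Jund, and limma voom 0. Among all 10159 tested genes 1.92% were called (195 genes). At an unadjusted p under 0.05 there were 4 members, Atf3, Egr1, Jun and Jund, all with lower values under smoke, and 15.5% of all tested genes reached that level. Those with lower values made up 7.95% of all tested genes (808 of the 1575 that reached it). The median log2 fold change of the 8 was −0.33, with 6 of 8 negative, beside a median of 0.0066 over all tested genes, of which 48.4% were negative.

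Fos, the gene of the main inducible AP-1 subunit (chromosome 12, 85473890 to 85477273, plus strand), was close to the floor in most libraries. It had 145 counts in all over the air libraries and 93 over the smoke libraries, with at least 10 counts in 5 of 11 and 3 of 13. In air it was 0.630 CPM at the lowest, 2.01 at the median and 15.2 at the highest, and in smoke 0.510, 1.15 and 7.34. The air value of 15.2 CPM belonged to library 5 alone, and the next, library 10, was at 5.31 CPM. In smoke, libraries 2, 4 and 5 were high, at 7.34, 5.42 and 5.38 CPM, and the other 10 were at or below 2.06. The groups overlapped almost completely. Fitted without the expression filter, Fos had a log2 fold change of −0.78 (edgeR, unadjusted p = 0.0358, adjusted p = 0.431).

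Fosb, a close relative of Fos (chromosome 7, 19302696 to 19310051, minus strand), was at the limit of detection, with 18 counts over all air and 10 over all smoke libraries and at most 6 in one. It had no count in 5 of 11 air and 7 of 13 smoke libraries, so no difference was detectable at this depth.

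Jun, the founding partner of Fos in AP-1 (chromosome 4, 95049034 to 95052222, minus strand), was measured with 224 to 674 counts in every library. In air it ranged from 81.8 through a median of 92.5 to 173 CPM, and in smoke from 67.3 through 87.2 to 120 CPM. Of the air libraries, 6 were at or below 92.5 CPM and 5 at or above 129 CPM, with none between. No smoke library reached 129 CPM. Smoke libraries were below the air mean in 12 of 13 and below the air median in 10 of 13. The mean was 113 ± 32.7 CPM (SD, n = 11) in air and 88.0 ± 14.3 CPM (SD, n = 13) in smoke, a log2 fold change of −0.37 (95% confidence interval −0.60 to −0.14) that missed the threshold (edgeR adjusted p = 0.0784).

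Jund, the AP-1 subunit that is made constitutively in most tissues (chromosome 8, 70698949 to 70700616, plus strand), ran from 15.7 through 22.1 to 30.0 CPM in air and from 11.6 through 17.9 to 25.5 CPM in smoke. Here 12 of 13 smoke libraries were below the air median, and only smoke library 4 was above it. The mean was 22.3 ± 4.20 CPM (SD, n = 11) in air and 17.1 ± 4.16 CPM (SD, n = 13) in smoke, which is −0.40 on the log2 scale (interval −0.65 to −0.15, edgeR adjusted p = 0.0702). This is the member that DESeq2 called (adjusted p = 0.0447).

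Junb, an AP-1 subunit that can restrain Jun and is known for supporting muscle mass (chromosome 8, 84974484 to 84978718, minus strand), was low, with 5 to 23 counts per library. It lay between 1.75 and 5.35 CPM in air (median 3.98) and between 1.83 and 7.34 CPM in smoke (median 4.08). Its log2 fold change was 0.25, with an interval of −0.19 to 0.68 (edgeR adjusted p = 0.644), which leaves a difference of either sign possible. Jun, Junb and Jund overlap annotated genes on the opposite strand (Junos, Prdx2 and Gm11175), and use of strand in counting was not stated, so their counts are uncertain.

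Atf3, a stress-induced repressor and activator (chromosome 1, 191170296 to 191218039, minus strand, overlapping the small RNA gene Gm24748 on the opposite strand), had the biggest estimated difference of the 8 tested members. In air it was 0.348 CPM at the lowest, 6.37 at the median and 14.7 at the highest, and in smoke 0, 2.2 and 10.2. Smoke libraries were below the air median in 12 of 13, the exception being library 2 at 10.2 CPM, and the next smoke value was 4.11 CPM. It had 277 counts over the air and 127 over the smoke libraries, with at least 10 in 9 of 11 and 5 of 13 and at most 3 in 1 and 3. Among air libraries, 2 and 9 were at 0.348 and 1.70 CPM, inside the lower part of the smoke range. The mean was 6.97 ± 4.21 CPM (SD, n = 11) in air and 2.91 ± 2.54 CPM (SD, n = 13) in smoke, a log2 fold change of −1.29 (interval −2.02 to −0.56). Its edgeR adjusted p of 0.0518 fell just short of the threshold.

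Egr1, a growth factor-responsive factor (chromosome 18, 34859823 to 34864984, plus strand), spread from 6.55 through 16.2 to 42.5 CPM in air and from 4.21 through 8.54 to 40.5 CPM in smoke. A single smoke library, number 2 at 40.5 CPM, lay within the upper air range, and the other 12 were at or below 13.1 CPM. In air, libraries 1 and 2 were highest, at 42.5 and 32.7 CPM, although neither was among the 3 highest for Fos. The means were 18.9 ± 11.3 CPM (SD, n = 11) and 11.0 ± 9.27 CPM (SD, n = 13), a difference of −0.79 on the log2 scale (interval −1.39 to −0.19, edgeR adjusted p = 0.162).

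Nr4a1, also known as Nur77, a receptor that promotes glucose use in muscle (chromosome 15, 101254269 to 101274795, plus strand), had a median of 33.3 CPM in air and of 33.1 CPM in smoke. The range was 8.18 to 86.7 CPM in air and 13.5 to 85.7 CPM in smoke, so that libraries of one group differed up to 10.6-fold in air and 6.33-fold in smoke. The estimated log2 fold change was −0.12, with an interval of −0.62 to 0.38 (edgeR adjusted p = 0.879).

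Ier2 (chromosome 8, 84661331 to 84662852, minus strand) was between 3.85 and 8.88 CPM in air and between 3.06 and 9.57 CPM in smoke, with medians of 5.31 and 6.53 CPM. Its log2 fold change was 0.16 (interval −0.19 to 0.51, edgeR adjusted p = 0.725). Btg2 (chromosome 1, 134075170 to 134079120, minus strand) was between 7.30 and 27.0 CPM in air and between 6.92 and 18.5 CPM in smoke, with medians of 11.4 and 9.57 CPM. Its log2 fold change was −0.30 (interval −0.68 to 0.090, edgeR adjusted p = 0.489). Without air library 5 the value of Btg2 was −0.14, and with the first component of the circadian genes as a covariate it was −0.57 (edgeR adjusted p = 0.223). Neither gene differed beyond the spread between libraries.

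**Figure D1:**
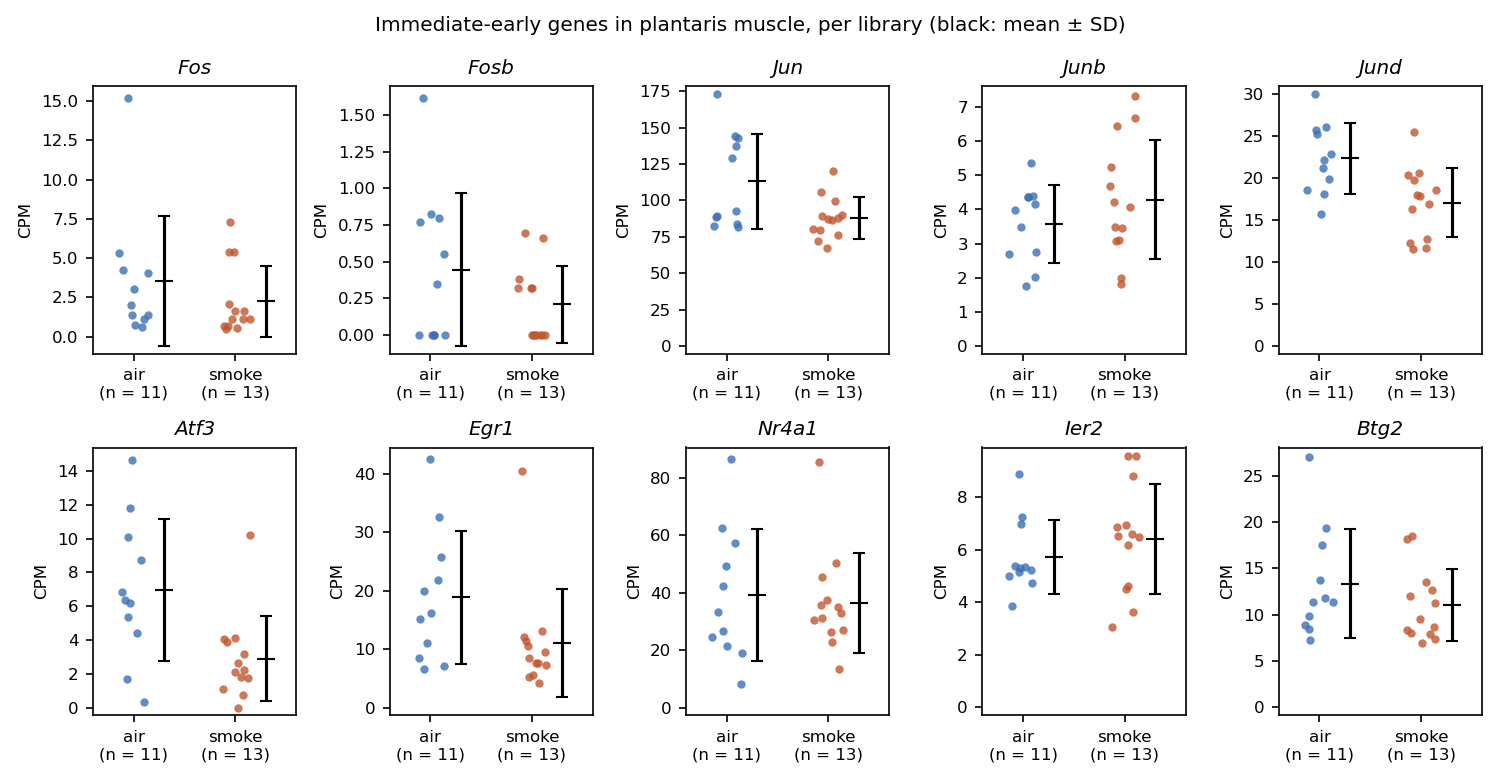
CPM (vertical axes, linear, 1 panel per gene) of the 10 immediate-early genes in each of 11 air and 13 smoke libraries (points), with mean ± SD in black. The groups overlap for every gene, Atf3 is below the air median of 6.37 CPM in 12 of 13 smoke libraries, and single libraries lie far above the rest, such as Fos at 15.2 CPM in air and Egr1 at 40.5 CPM in smoke.

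Whether the 4 members nearest to the threshold were called turned on single libraries. With each of the 24 libraries left out in turn, the adjusted p of Atf3 (edgeR) ranged from 0.00964 to 0.115 and it was called in 6 of the 24 fits: those without air libraries 1, 2, 9 or 11 and those without smoke libraries 2 or 13. For Jun it ranged from 0.0388 to 0.164 and for Jund from 0.0290 to 0.126, and both were called in 2 fits, without air library 11 and without smoke library 4. For Egr1 it ranged from 0.0102 to 0.307, and the gene was called only without smoke library 2, where its log2 fold change was −1.15. Without air library 11, which had the low mitochondrial share, 3 members were called, Jun, Jund and Atf3, in a fit that called 254 genes in all, against 195 with all libraries. The negative sign of these 4 genes held in all 24 fits.

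**Figure D2:**
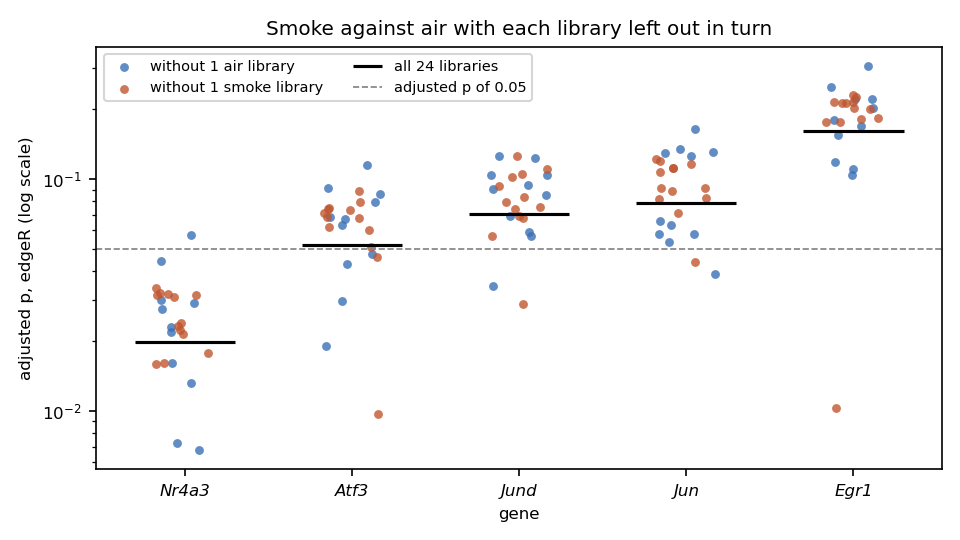
Adjusted p (edgeR, log axis) of smoke against air for Nr4a3, Atf3, Jund, Jun and Egr1 with all 24 libraries (black bars) and with each library left out in turn (blue, air; red, smoke). The points of Atf3, Jund and Jun lie on both sides of the dashed line at 0.05, and a single point of Egr1, without smoke library 2, lies at 0.0102.

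Markers of other material moved between the groups as well. Of the 7 listed blood markers, all tested, 3 were lower under smoke (Hbb-bs, Hbb-bt and Hba-a2, haemoglobin genes with near-identical copies, so that their reads are uncertain; DESeq2 called Alas2 in place of Hba-a2), and the summed level of the list ran from 499 to 1456 CPM in air and from 376 to 891 CPM in smoke. Of 11 tested circadian genes out of 13 listed, Dbp, Per3 and Nr1d2 were higher and Nfil3 lower, with sums of 255 to 359 CPM in air and 273 to 450 CPM in smoke. With the blood sum as a covariate, a setting added after the data were seen, Atf3 was at −1.36 on the log2 scale (edgeR adjusted p = 0.130), Jund −0.45 (adjusted p = 0.138), Jun −0.38 (adjusted p = 0.210) and Egr1 −0.52 (adjusted p = 0.588). With the first component of the circadian genes, also added then, Atf3 was at −1.80 and was called (edgeR adjusted p = 0.0371), and Egr1, Jun and Jund were not (adjusted p = 0.337, 0.123 and 0.379).

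By edgeR 0 markers were called in each of the lists for fast fibres (8 tested, 1 at an unadjusted p under 0.05), slow fibres (5 and 2), endothelium (8 and 1), smooth muscle and pericytes (5 and 1), fibroblasts (6 and 2), macrophages (5 and 0), satellite cells (3 and 0) and adipocytes (4 and 1). DESeq2 called 1 of these, Myh11, and limma voom 0. The part of cell makeup in the values of the immediate-early genes was not tested, and in bulk tissue fewer cells of a type and less RNA per cell cannot be told apart.

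Spread between libraries of a group was wide for some of the members. The biological coefficient of variation, the spread beyond counting error, was 0.576 for Atf3, 0.481 for Egr1, 0.415 for Nr4a1 and 0.289 for Btg2. At their expression levels the trend over all genes gave 0.220, 0.162, 0.133 and 0.170. As a ratio of dispersion to trend, Nr4a1 was above 99.9% of the tested genes, Egr1 above 99.8%, Atf3 above 99.7%, Btg2 above 97.9% and Jun above 96.2%. Jund, Junb and Ier2 were nearer the bulk of genes, at percentiles of 79.9, 70.1 and 61.0. The dispersion was estimated over both groups together. In log2 CPM the SD of Nr4a1 was 0.94 in air and 0.61 in smoke, and that of Atf3 was 1.16 and 1.02, beside medians over all tested genes of 0.29 and 0.28. The SD of Jun was 0.40 in air and 0.22 in smoke, at percentiles of 75.9 and 34.2 among all tested genes.

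A test of spread, limma on the absolute deviation of each library from its group median, called 0 of the 10159 genes as differing in spread between smoke and air (0%), and 271 (2.67%) reached an unadjusted p under 0.05, none of them a member. With 1 library left out, an unadjusted p under 0.05 was reached by Jun in 8 of 24 fits (without air libraries 1, 2, 7, 8, 9 or 11 or smoke libraries 1 or 4), by Nr4a1 in 3 (without air library 1 or smoke libraries 4 or 10) and by Egr1 in 1 (without smoke library 2), and no member was called in any. With all libraries Jun came nearest, with a mean absolute deviation in log2 CPM that was 0.18 smaller in smoke (difference −0.18, SE 0.092, limma unadjusted p = 0.0562, adjusted p = 0.999). For Nr4a1 the difference was −0.32 (SE 0.19, limma unadjusted p = 0.10, adjusted p = 0.999).

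High values of different members fell in the same libraries. In air, library 4 and library 10 were each among the 3 highest of their group for 7 of the 10 genes and library 5 for 6, and library 5 was the highest of all for 5. In smoke, libraries 2 and 4 were each among the 3 highest for 8 of 10 genes and above the group median for 10 of 10, while library 8 was above it for 0. Fosb enters these tallies at the limit of detection. It had 6 counts in air library 4 and 3 each in air libraries 5, 7 and 10. In smoke libraries 2 and 4 it had 1 count each, against a smoke median of 0 CPM. Beside this, the gene Gm42418, which overlaps ribosomal RNA sequence, took 17.0% of the counts of smoke library 2 and 12.5% of those of smoke library 4, in a group range of 11.3% to 17.8%, and mitochondrial transcripts took 2.54% and 3.04%. Among the marker lists, smoke library 2 had the highest adipocyte sum of its group, 224 CPM against 84.5 to 163 CPM in the 12 others, and the highest circadian sum, 450.1 CPM against 273 to 395 CPM. Smoke library 4 had the lowest adipocyte sum, 84.5 CPM, and a circadian sum of 389.5 CPM. The part of these levels in the values was not tested.

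**Figure D3:**
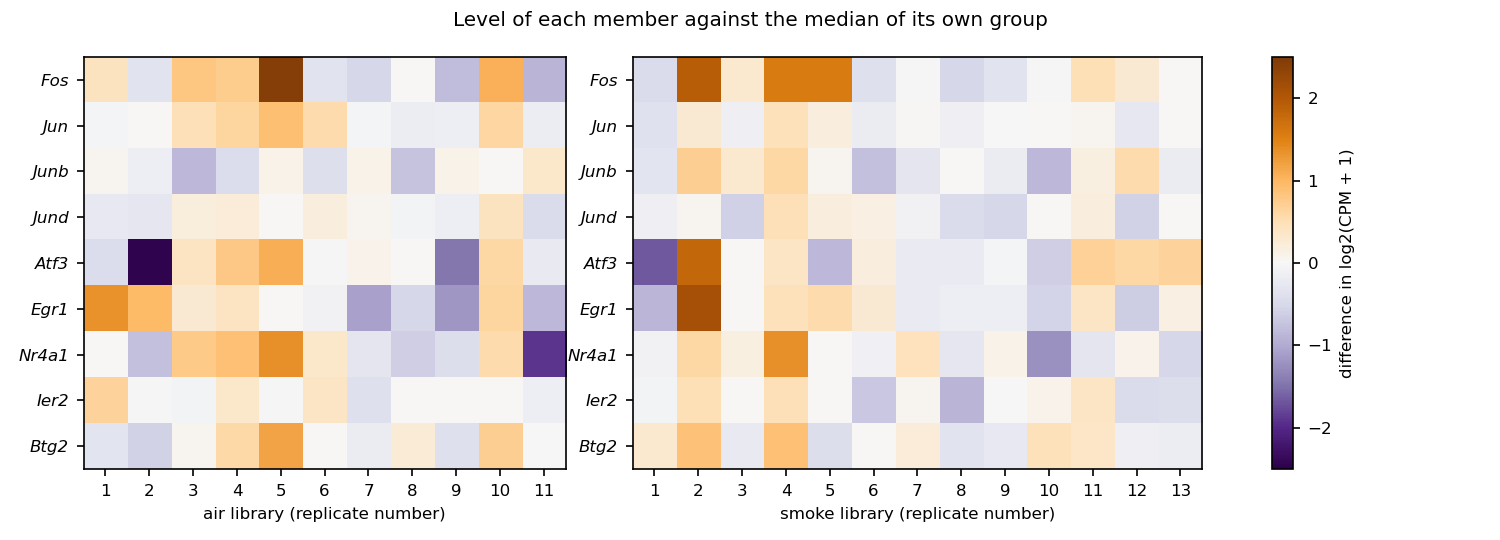
Difference in log2(CPM + 1) of 9 immediate-early genes (rows, Fosb left out for its low counts) from the median of the same gene in the same group, for each air library (left) and smoke library (right), by replicate number. Smoke libraries 2 and 4 are above the group median for every gene shown, and air libraries 4, 5 and 10 are high for most of them.

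Covariation was measured for all 28 pairs of the 8 tested members within each group, on log2 CPM, by the coefficients of Pearson (r) and Spearman (rho). In air (n = 11) the median r was 0.229, with 19 of 28 pairs positive and a range of −0.459 to 0.868, and in smoke (n = 13) it was 0.431, with 27 of 28 positive and a range of −0.0600 to 0.693. Over all pairs of the 10159 tested genes the median was −0.0013 in air and −0.00209 in smoke, with 49.9% and 49.8% positive. The median over members in air depended on single libraries: it was 0.407 without air library 1, 0.385 without library 2 and 0.132 without library 11. In smoke it stayed between 0.315 and 0.489 when each library was left out. The difference between the groups in covariation was not tested.

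By r the closest pair was Jun and Nr4a1 in air, with r = 0.868 (permutation p = 0.00055, adjusted p = 0.0308 over 56 relations) and rho = 0.873 (permutation p = 0.00092, adjusted p = 0.0220). Without the 2 libraries farthest from the median of Jun, r was 0.780, and without air library 11 it was 0.928. In smoke the same pair had r = 0.50 (permutation p = 0.0812, adjusted p = 0.227) and rho = 0.335 (permutation p = 0.262, adjusted p = 0.459), and r was 0.187 without the 2 farthest libraries and 0.151 without smoke library 4 alone. By rho the closest pair was Atf3 and Btg2 in air, with r = 0.815 (permutation p = 0.00273, adjusted p = 0.0764) and rho = 0.918 (permutation p = 0.00024, adjusted p = 0.0134), and r was 0.895 without 2 libraries. In smoke, Jun and Ier2 had r = 0.656 (permutation p = 0.0144, adjusted p = 0.0903) and rho = 0.813 (permutation p = 0.00118, adjusted p = 0.0220), with r at 0.724 without 2 libraries.

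After adjustment, 1 pair passed by r and 2 by rho in air, and 0 by r and 1 by rho in smoke. Unadjusted, 8 pairs in air and 7 in smoke reached a permutation p of r under 0.05. The central 95% of r over all pairs of tested genes ran from −0.651 to 0.662 in air and from −0.576 to 0.587 in smoke. Within that range in air lay Jun and Atf3 (r = 0.625), Nr4a1 and Btg2 (r = 0.630) and Egr1 and Ier2 (r = 0.612), which are among the 8. The r of Egr1 and Atf3 in smoke rested on a pair of libraries: r was 0.685 (permutation p = 0.0175, adjusted p = 0.0903; rho = 0.50, permutation p = 0.0851, adjusted p = 0.245) with all 13 libraries and 0.0550 without the 2 farthest, smoke libraries 2 and 1, and with any 1 library left out it was at least 0.463. Junb stood apart in air, where its r with the 7 other members ran from −0.459 to −0.0599. In smoke its r with them ran from −0.0600 to 0.668. Junb had at most 23 counts in a library.

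**Figure D4:**
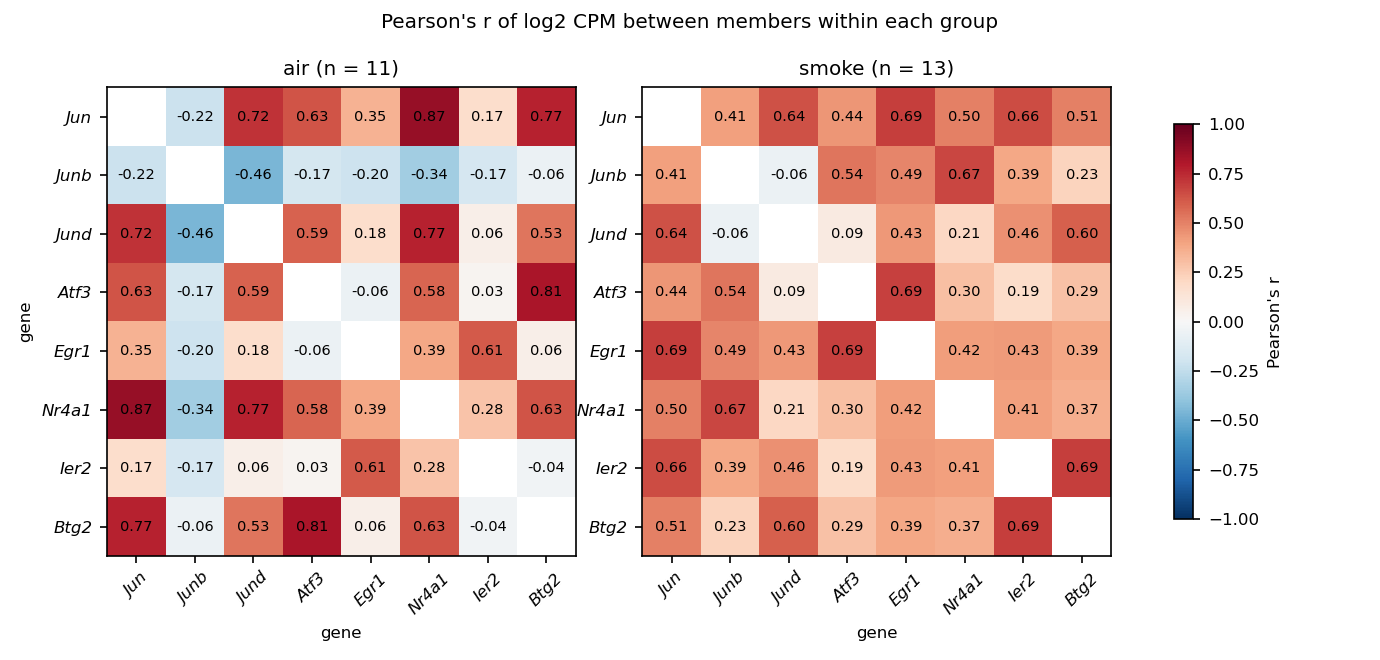
Pearson's r of log2 CPM between each pair of the 8 tested members, in air (left, n = 11) and smoke (right, n = 13), on a colour scale from −1 to 1. In air a block of Jun, Jund, Atf3, Nr4a1 and Btg2 is positive and the row of Junb is negative, and in smoke 27 of 28 pairs are positive.

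Fos was too low for the test, and its r with the 8 tested members is given as a description. It was 0.809 in air and 0.787 in smoke with Jun, 0.520 and 0.504 with Jund, and −0.155 and 0.673 with Junb. With Nr4a1 it was 0.835 and 0.534, with Btg2 0.808 and 0.456, and with Atf3 0.624 and 0.449. With Egr1 it was 0.491 and 0.753, and with Ier2 0.177 and 0.666. In air the r of Fos was thus low with Ier2 and negative with Junb, while in smoke all 8 were positive.

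The promoters of these covarying genes are shown because immediate-early induction runs through short sites near the start. Of the 10 genes, 8 were searched, with promoters taken from the RefSeq table (GRCm38.p6). Ier2 had no entry in that table, and Egr1 was left out of the search. The 250 bases upstream of the start were searched on both strands. The motifs were the cAMP response element TGACGTCA, its core TGACG, the AP-1 site TGANTCA and the CArG box bound by SRF. The full element contains the core, which reads CGTCA on the other strand. The start is that of the RefSeq table and can differ from the gene bounds given above, which cover all annotated transcripts: it lies inside the stated bounds for Nr4a1, Atf3 and Fosb and upstream of them for Jund, Btg2 and Junb. For Jund the window ended at base 70697738, before the stated gene start at base 70698949. The core was found in 6 of the 8 windows and in 17.8% of all 32851 windows of this length. The full element was found in 1 of 8, Btg2, and in 1.55% of all windows. The AP-1 site and the CArG box were found in 0 of the 8 windows searched, and in 6.75% and 1.47% of all windows. Whether the promoters of Egr1 and Ier2 hold any of these motifs was not tested. A match describes the letters of a window and is neither a site nor a cause, and the lack of one says only that these letters are not in it.

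In the 4 windows printed 5′ to 3′ on the strand of the gene, capitals mark the core TGACG or CGTCA. The pair of highest r is given first, then Btg2 with the full element, then Fos.
Jun (chr4:95052223-95052472, minus strand): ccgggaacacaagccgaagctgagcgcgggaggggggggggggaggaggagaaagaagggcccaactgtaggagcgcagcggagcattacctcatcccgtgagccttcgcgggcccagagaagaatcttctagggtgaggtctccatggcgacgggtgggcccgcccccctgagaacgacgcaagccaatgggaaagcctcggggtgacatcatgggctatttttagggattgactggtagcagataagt
Nr4a1 (chr15:101266596-101266845, plus strand): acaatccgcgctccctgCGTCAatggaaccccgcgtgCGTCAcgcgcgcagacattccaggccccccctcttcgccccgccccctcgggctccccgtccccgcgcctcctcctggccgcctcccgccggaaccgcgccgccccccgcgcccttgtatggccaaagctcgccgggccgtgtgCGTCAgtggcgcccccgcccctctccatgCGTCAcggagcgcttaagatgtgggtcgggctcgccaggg
Btg2 (chr1:134079156-134079405, minus strand): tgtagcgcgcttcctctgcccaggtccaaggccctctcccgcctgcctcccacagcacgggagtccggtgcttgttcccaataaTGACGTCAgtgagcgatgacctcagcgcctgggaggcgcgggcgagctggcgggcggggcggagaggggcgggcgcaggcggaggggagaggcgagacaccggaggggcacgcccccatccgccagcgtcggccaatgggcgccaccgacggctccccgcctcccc
Fos (chr12:85473640-85473889, plus strand): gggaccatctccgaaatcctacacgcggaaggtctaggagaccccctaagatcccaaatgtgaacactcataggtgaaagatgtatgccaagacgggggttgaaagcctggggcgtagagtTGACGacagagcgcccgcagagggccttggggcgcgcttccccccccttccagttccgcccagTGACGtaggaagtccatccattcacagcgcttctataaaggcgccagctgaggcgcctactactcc
The Nr4a1 window held 4 copies of the core, of which 2 began 69 and 40 bases before the start, and the Fos window held 2, at 129 and 66 bases. In Btg2 the full element began 166 bases before the start. The Jun window held none of the motifs searched, though by r Jun and Nr4a1 were the closest pair in air. All 4 windows were richer in G and C than the median window of 52.4%, at 61.2% for Jun, 74.4% for Nr4a1, 73.2% for Btg2 and 58.4% for Fos.

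Among the relatives of the members, Nr4a3, the third NR4A receptor and one known to respond to exercise (chromosome 4, 48045153 to 48086447, plus strand), fell under smoke. It ran from 0.695 through 5.88 to 23.7 CPM in air and from 0.275 through 2.55 to 4.78 CPM in smoke. All 13 smoke libraries were below the air median. Air libraries 2, 7, 9 and 11 lay within the smoke range, at 0.695, 3.30, 0.728 and 4.09 CPM. Of these, libraries 2 and 9 were also the lowest for Atf3. The means were 7.29 ± 6.43 CPM (SD, n = 11) and 2.35 ± 1.53 CPM (SD, n = 13), a log2 fold change of −1.66 (interval −2.46 to −0.86, edgeR adjusted p = 0.0197). It was called in 23 of 24 fits with a library left out, and not without air library 4 (adjusted p = 0.0570). It was called by DESeq2, and not by limma voom (adjusted p = 0.122) or with the circadian component as a covariate (−1.28 on the log2 scale, edgeR adjusted p = 0.225). Nr4a2 averaged 4.86 CPM in air against 7.60 CPM in smoke (edgeR adjusted p = 0.414). Of the 7 genes listed for the EGR and NR4A families, 3 were tested, and Nr4a3 was the 1 that was called.

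Of 41 other early response genes, 28 were tested, 1 rose and 1 fell, and their median log2 fold change was 0.012. Trib1, a pseudokinase that steers protein degradation (chromosome 15, 59648350 to 59657099, plus strand), was lower in smoke, with means of 45.1 ± 19.8 CPM (SD, n = 11) and 28.3 ± 8.66 CPM (SD, n = 13), or −0.68 on the log2 scale (edgeR adjusted p = 0.0326). It ran from 25.5 through 35.3 to 78.6 CPM in air and from 17.7 through 25.4 to 50.7 CPM in smoke. Of the 13 smoke libraries, 12 were below the air mean and 11 below the air median. Trib1 was called in 16 of the 24 fits with a library left out, and not without air libraries 3, 4, 5 or 6 or smoke libraries 6, 8, 9 or 12, where the adjusted p reached 0.0763. DESeq2 called it, but limma voom (adjusted p = 0.0618) and edgeR with the blood covariate (−0.74 on the log2 scale, adjusted p = 0.107) did not. With the circadian component it was at −1.07 and was called (edgeR adjusted p = 0.0112). Bhlhe40, a repressor that also belongs to the clock (chromosome 6, 108660629 to 108666925, plus strand), was higher in smoke, at 114 ± 12.1 CPM (SD, n = 13) against 84.1 ± 12.2 CPM (SD, n = 11), with no overlap between groups, which 0.0295% of tested genes showed. Its log2 fold change was 0.44 (edgeR adjusted p = 0.00105) and it was called in all 24 such fits. It overlaps 0610040F04Rik on the opposite strand.

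Of 11 AP-1 partners, 5 were tested, and edgeR called 0, with 2 at an unadjusted p under 0.05. Mafg, a small Maf protein, was at 93.3 ± 10.8 CPM (SD, n = 11) in air and 79.5 ± 8.64 CPM (SD, n = 13) in smoke (log2 fold change −0.23, edgeR adjusted p = 0.0632), and it was called by DESeq2 but not by limma voom. With 1 library left out it was called in 4 of 24 fits, those without air libraries 6, 7 or 11 or smoke library 11. Atf2, a partner of Jun, averaged 8.57 and 11.1 CPM (log2 fold change 0.36, edgeR adjusted p = 0.274). Of 26 kinases and transcription factors that act upstream, 23 were tested and 1 was called. Mrtfa, a coactivator of SRF (chromosome 15, 81012281 to 81190757, minus strand, overlapping Sgsm3), was higher in smoke, at 36.7 ± 5.53 CPM (SD, n = 13) against 29.4 ± 4.63 CPM (SD, n = 11), or 0.33 on the log2 scale (edgeR adjusted p = 0.0494). It was called in 5 of the 24 fits with a library left out, those without air libraries 2, 7 or 11 or smoke libraries 6 or 10, and the adjusted p in the other fits reached 0.0928. DESeq2 and limma voom called it, and edgeR with the blood covariate did not (0.31 on the log2 scale, adjusted p = 0.217), nor did edgeR with the circadian component (0.29, adjusted p = 0.215) or without the expression filter (0.32, adjusted p = 0.0680). Srf itself averaged 186 CPM in air against 180.4 CPM in smoke (edgeR adjusted p = 0.825).

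**Figure D5:**
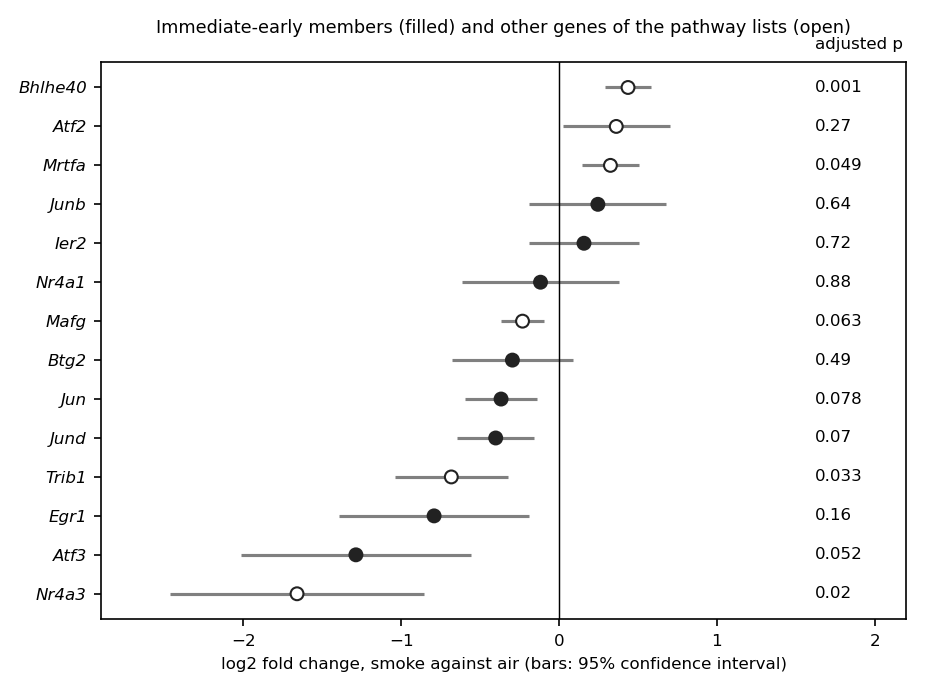
Log2 fold change of smoke against air (horizontal axis, with 95% confidence intervals) for the 8 tested members (filled) and for the genes of the pathway lists named by rule (open), with the edgeR adjusted p at the right. Nr4a3, Trib1, Mrtfa and Bhlhe40 are under 0.05, and no member is.

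To find the genes whose level followed the members most closely, the log2 CPM of every tested gene was correlated over all 24 libraries, after removal of the group means, with the mean of the 8 members. The 6 highest non-members were Otud1 (r = 0.851), Slc20a1 (0.842), Hspa1a (0.841), Irs2 (0.783), Dusp1 (0.740) and Lrrc32 (0.733). The median r over all tested genes was 0.0114. Lrrc32 had r = 0.475 within air and 0.882 within smoke, while the other 5 were at 0.731 or above in each group. These r are descriptions over libraries that share their preparation. Dusp1, a phosphatase that switches off MAP kinases, is itself an early response gene of the list above, and Hspa1a is an inducible HSP70 chaperone.

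Of these 6 genes, Hspa1a was called with all libraries and the filter. It ran from 7.30 to 29.6 CPM in air and from 3.30 to 19.4 CPM in smoke, with means of 16.6 ± 8.23 CPM (SD, n = 11) and 8.26 ± 4.27 CPM (SD, n = 13), and fell by 1.02 on the log2 scale (edgeR adjusted p = 0.0142). It was called in all 24 fits with a library left out. Its copy Hspa1b is near-identical, so the share of reads between them is uncertain. Otud1, a deubiquitinase, averaged 14.5 ± 14.9 CPM (SD, n = 11) in air and 6.27 ± 6.43 CPM (SD, n = 13) in smoke, with SDs above the means (log2 fold change −1.24, edgeR adjusted p = 0.118). Otud1 was called without the filter (adjusted p = 0.0209), without smoke library 2 (−1.61, adjusted p = 0.0296) and with the circadian component (−2.08, adjusted p = 0.0272), and without air library 5 it was at −0.80. Without the filter Slc20a1 (adjusted p = 0.0246) and Dusp1 (adjusted p = 0.0431) were called too, and Slc20a1 also without smoke library 4 (adjusted p = 0.0235). Slc20a1, a phosphate transporter, was at 28.8 and 19.8 CPM (edgeR adjusted p = 0.0892), Irs2, an adaptor of the insulin receptor, at 19.3 and 13.1 CPM (adjusted p = 0.179), and Dusp1 at 71.1 and 52.4 CPM (adjusted p = 0.135). Lrrc32 was at 4.11 and 3.20 CPM (adjusted p = 0.511).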

How the data were processed

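The table that the authors deposited holds unnormalized read counts, with Ensembl gene IDs in rows and samples in columns. Per the submitters' processing notes, STAR, DESeq2 and the build mm9 were used, with no role given. The counting tool, annotation, strand use and handling of PCR copies were not given in the sources used here. Per the file headers, all libraries ran on 1 lane, and sheet numbers 229 to 241 were smoke and 242 to 252 air, so that sheet position is confounded with the groups and the effects cannot be told apart. Sample titles gave the group and the replicate number.

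Symbols, coordinates and overlaps came from GENCODE M21 (GRCm38, 1-based), which held 47224 of 47643 IDs (99.1%). It was chosen here, and its build is not the one in the notes. Genes passed filterByExpr (minimum count 10), were TMM-scaled and tested with edgeR 4.0.16 in R 4.3.3 on all 24 libraries without covariates. P-values were adjusted by Benjamini-Hochberg over 10159 genes. SE is the fold change (log2) divided by the root of the F statistic. On simulated counts of 10159 genes with 200 changed, 90% of 2-fold and 68% of 1.5-fold changes were recovered. The changed genes were drawn from all tested genes at their own dispersions. These shares therefore do not describe members with a wide spread, such as Atf3, Egr1 and Nr4a1. Spread used limma 3.58.1 on log2 CPM (prior count 2). Correlations had two-sided permutation p-values (100000 permutations).

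Over 133 pairs of libraries within groups, chi-square per gene was at least 2.51, more than sampling noise gives, and each library was counted as its own sample. The members and gene lists were chosen with earlier results of these data known. The text names all members, list genes that were called (or, where none was, the 2 with the smallest p), called markers and the 6 nearest genes, except 1 marker result that is not reported here. Other genes (Nr4a2, Srf, Myh11) were picked with their values in view. Settings varied were upper-quartile or RLE scaling, limma voom, DESeq2 1.42.0, no filter, thinning, a threshold of 0.10, a surrogate variable from sva 3.50.0, a replicate block, and each library left out in turn. The 2 covariates, Fos as a further gene in the correlations and the alternatives for non-members were added after the data were seen.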

Additional observations from a re-analysis of the deposited data

How the results depend on the processing

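Against 195 genes and 0 members called, DESeq2 gave 323 genes and 1 member, an adjusted p under 0.10 gave 413 and 3, 1 surrogate variable gave 436 and 3, thinning gave 152 genes and 1 member, and no expression filter gave 201 of 27644 genes and 2 members, Jun and Atf3. The blood covariate gave 62 genes, and the circadian covariate 125 genes and 1 member. Apart from the other threshold, the cause of these shifts was not tested. Leaving out each library gave 141 to 254 genes and 0 to 3 members, and 0 to 1 genes that differed in spread (limma), which was 0 under the other settings tried. Of 192 member fold changes with a library left out, 180 kept sign and side of the threshold, 11 passed it and 1 changed sign. Nr4a1 ranged from −0.29 to 0.069, the last without air library 5. Of 80 under other settings, 71 kept both, 8 passed and 1 changed sign, that of Nr4a1 at 0.033 under the replicate block.

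Replicate numbers occur in both groups but nothing pairs them: over 11 same-numbered pairs the mean r of deviations was −0.0059, and over other pairs 0.0020. Under the replicate block, fitted on the 22 libraries with a shared number, 138 genes and 0 members were called, and Nr4a3 (edgeR adjusted p = 0.0553), Trib1 (0.0932) and Mrtfa (0.102) were not called, while Bhlhe40 and Hspa1a were. Nr4a3 has no value with thinned counts. The median pairwise r lay between 0.155 and 0.361 in air and between 0.407 and 0.475 in smoke under 6 other settings, and between 0.132 and 0.407 in air and 0.315 and 0.489 in smoke with a library left out. Depth limits Fos, Fosb, Atf3, Junb and Ier2, which have few counts.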
